A study of Mus musculus with 4 samples.

Results

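Sterol and fatty acid synthesis genes were examined in epidermal cells sorted from newborn mouse skin after induction of miR-203, a microRNA of the differentiating epidermis. The set was a list of 33 genes. It comprised 18 enzymes that build cholesterol, 6 genes for regulators and sterol transport, and 9 enzymes that make or modify fatty acids. Of the 33 genes, 32 had a probe set assigned to that gene alone, and each of these was followed through its brightest probe set. Expression of Acat2, an acetyl-CoA acetyltransferase, is not analysed here, and the gene enters only the promoter counts. All 32 lay above the filter on dim probe sets, among 13489 named genes in all.

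Induced pups carried K14-rtTA, TRE-miR-203 and K14-H2BGFP, that is, an rtTA activator expressed from the keratin 14 promoter, a miR-203 transgene that rtTA turns on in the presence of doxycycline, and a nuclear green fluorescent protein. Control littermates carried TRE-miR-203 and K14-H2BGFP without the activator and are labelled WT. Both groups were of FVB background, and both were taken at postnatal day 4, 24 h after doxycycline. The keratin 14 promoter is active mainly in basal keratinocytes. Effects of rtTA itself and of miR-203 cannot be told apart, since controls lacked the activator and with it the induction. RNA of 2 control and 2 induced samples, labelled as biological replicates, was read on 1 Affymetrix array each. Whether a sample pooled animals, and the gate of the sort, are not given in the sources used here.

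The cholesterol pathway turns acetyl-CoA into mevalonate, isoprenoid diphosphates, squalene and lanosterol, and then trims lanosterol to cholesterol. Its genes are driven together by SREBP transcription factors, which the escort protein Scap carries out of the endoplasmic reticulum when sterols are low and which Insig proteins hold back when sterols are high. Fatty acid synthesis starts from citrate-derived acetyl-CoA and ends in elongation and desaturation. In epidermis both pathways supply the cholesterol and long acyl chains of the water barrier.

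Induction used miR-203, whose mature strands are shown because they name the transgene, which both groups carried and which only induced pups could turn on through the activator. The sequences are those of RefSeq (GRCm38.p6, chromosome 12, plus strand, 112130927 to 112130948 for the 3p strand and 112130889 to 112130910 for the 5p strand), with the seed, bases 2 to 8, in capitals. Neither strand was measured in the values used here.
mmu-miR-203-3p: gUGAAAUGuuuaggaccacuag
mmu-miR-203-5p: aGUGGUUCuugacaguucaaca

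The letter content of promoters, which the list did not use, was counted for these genes beside all protein-coding genes. RefSeq promoters (GRCm38.p6, 250 bases before to 50 after a start) were matched for 26 of the 33 genes. None was matched for Fdps, Fdft1, Sqle, Stard4, Scd1, Scd2 and Fads1. CCAAT, the box bound by NF-Y, a partner of SREBP, was found on either strand in 14 of 15 sterol enzyme genes, 4 of 5 regulator genes and 3 of 6 fatty acid genes, against 42.3% of 17492 protein-coding genes. GGGCGG, the Sp1 box, was found in 14 of 15, 5 of 5 and 2 of 6, against 49.2%. CACGTG, an E-box, was found in 6 of the 26 genes, against 8.91%. TCACNCCAC, the core of the sterol response element, was found in 1 of the 26 genes, Hmgcs1, against 1.41%, and the shorter CACNCCAC that lies within it in 3 of the 26, against 7.26%. A match is a run of letters and not a measured binding site, and the counts take any promoter of a gene with several. Only exact runs were counted, so the lack of a match does not show that a gene lacks a sterol element.

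The bases before the start are shown for 3 of these genes. Hmgcs1 holds the match to TCACNCCAC, and Nsdhl had the largest difference among the sterol enzymes. Insig1 was the 1 gene of the set whose induced values both exceeded both controls. Capitals mark TCACNCCAC and CCAAT on either strand (CCAAT reads ATTGG on the other), and no match of one overlapped the other. In Hmgcs1 the sterol element begins 137 bases before the start, between the second and the third of 3 CCAAT boxes.
Hmgcs1 (chr13:119690101-119690350, plus strand): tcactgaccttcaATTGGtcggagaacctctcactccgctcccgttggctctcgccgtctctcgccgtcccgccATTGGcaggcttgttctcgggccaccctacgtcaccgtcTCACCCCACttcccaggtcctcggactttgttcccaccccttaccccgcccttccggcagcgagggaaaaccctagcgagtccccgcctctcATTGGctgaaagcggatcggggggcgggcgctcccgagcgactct
Nsdhl (chrX:72918271-72918520, plus strand): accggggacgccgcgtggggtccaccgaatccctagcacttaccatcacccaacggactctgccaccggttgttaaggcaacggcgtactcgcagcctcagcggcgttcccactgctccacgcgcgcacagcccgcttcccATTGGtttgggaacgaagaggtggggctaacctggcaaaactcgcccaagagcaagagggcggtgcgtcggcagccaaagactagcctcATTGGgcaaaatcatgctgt
Insig1 (chr5:28071162-28071411, plus strand): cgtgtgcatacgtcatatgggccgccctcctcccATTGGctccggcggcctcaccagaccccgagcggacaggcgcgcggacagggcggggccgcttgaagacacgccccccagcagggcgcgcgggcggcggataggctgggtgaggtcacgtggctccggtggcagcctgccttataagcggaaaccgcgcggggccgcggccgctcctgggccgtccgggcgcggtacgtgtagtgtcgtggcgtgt

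The arrays were of like quality. Their medians ran from 4.74 to 4.79 in log2 units, and Pearson's r between replicates was 0.995 for controls and 0.994 for induced arrays across the 27022 probe sets tested. The actin control signal at the 3' end exceeded that at the 5' end by 1.05 in control replicate 1 and by 1.14 to 1.16 in the other 3 arrays. Keratinocyte markers were bright, with Krt14 at 13.96 to 14.13. Markers of other cell types were in part above the filter level of 4.17. Of fibroblast markers Dcn (7.57 to 8.42), Col3a1 and Col1a2 lay above it and Col1a1, Lum and Pdgfra below. Of fat cell markers Fabp4, Retn and Lipe lay above and Adipoq and Cidec below, and of endothelium Kdr lay above and Pecam1 and Cdh5 below. Unlike the other 3 arrays, induced replicate 1 carried Y-linked transcripts and little Xist, so results are also given without it.

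Sterol and fatty acid genes differed little between induced and control arrays. The median difference of the 32 genes was -0.04 (log2, induced minus control), against -0.00 for all named genes. On leaving out 1 array it ran from -0.09 (induced replicate 1 omitted) to -0.00 (induced replicate 2 omitted), with -0.06 when control replicate 2 was omitted, and 20 of the 32 had a difference under 0.1 in either direction. The largest differences were those of Scd1 (-0.45 ± 0.13 SE), Nsdhl (-0.38 ± 0.11) and Elovl6 (-0.29 ± 0.11). In limma, 0 of the 32 genes had an adjusted p under 0.05, as did 0% of all probe sets. At an unadjusted p under 0.05 these 3 genes were lower and 0 of the 32 were higher, against 5.23% of all genes lower and 4.40% higher. With limma's trended and robust variance prior, the test called 126 probe sets and again 0 of the 32 genes, the lowest adjusted p among them being 0.161 for Scd1.

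Both induced values lay below both control values for 7 of the 32 genes, and above them for 1. Of all named genes 19.3% were below and 20.1% above in the same sense. The 7 were Pmvk, Cyp51, Nsdhl, Hsd17b7, Scd1, Elovl5 and Elovl6. On omitting control replicate 2 the count below was 14, and on omitting induced replicate 1 it was 20, when 1 array stood for its group. By that looser criterion 37.9% and 33.3% of all genes were below, so that 20 of 32 is above and 14 of 32 near the share of all genes. The count above ran from 4 without control replicate 2 to 11 without induced replicate 2, when 33.2% and 33.5% of all genes were above. A lower mean was seen for 19 of the 32 genes, against 50.4% of all genes.

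**Figure D1:**
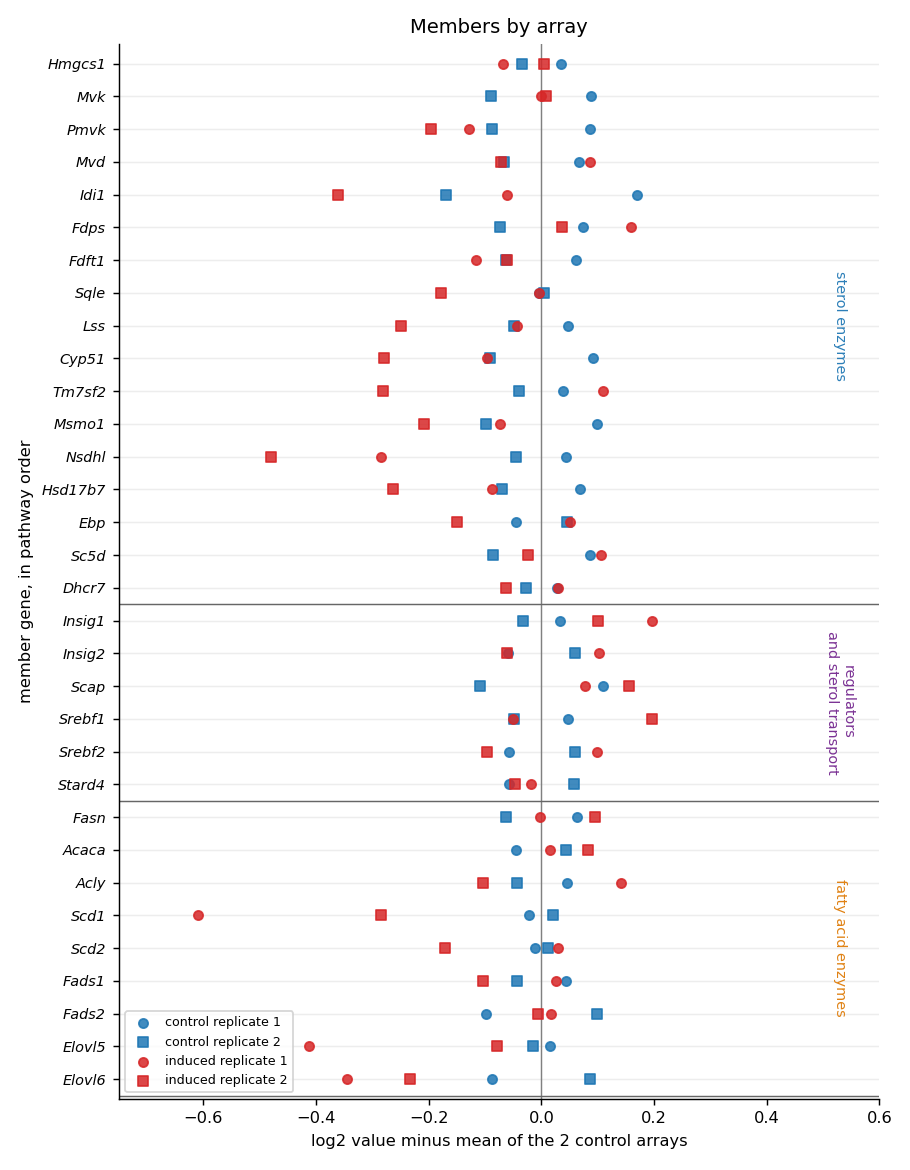
Log2 values of the 32 measured genes on the 4 arrays, each as its distance from the mean of the 2 controls (x axis, log2 units), in pathway order (y axis); blue marks controls, red induced, circles replicate 1 and squares replicate 2. Among sterol enzymes induced replicate 2 is the lowest array for 12 of 17 genes, and in the fatty acid group Scd1, Elovl5 and Elovl6 stand apart to the left.

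Sterol enzymes had a median difference of -0.09 over the 17 measured genes, 13 of them with a lower mean in the induced arrays. Both induced values lay below both controls for 4 of the 17 and above them for 0, against 19.3% and 20.1% of all genes. None of the 17 passed the adjusted threshold. Leaving out induced replicate 1 moved this median to -0.18, and it was -0.04 without induced replicate 2 or control replicate 1. The count of 4 became 10 when control replicate 2 was left out and 12 when induced replicate 1 was, as 1 array then stood for its group (37.9% and 33.3% of all genes). The count above stayed at 0 in both cases. Without induced replicate 2, 6 were below and 6 above (35.3% and 33.5% of all genes). Without control replicate 1, 5 were below and 3 above (31.9% and 37.3%).

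The early steps, from acetyl-CoA to farnesyl diphosphate, began with enzymes that hardly differed. Hmgcs1, the HMG-CoA synthase, had log2 values of 12.05 and 11.98 in controls and 11.94 and 12.02 in induced arrays. Its groups overlapped, with a difference of -0.03 ± 0.10 (SE), and its 3 other kept probe sets ran from -0.10 to -0.03. Mvk, the mevalonate kinase, had 7.998 and 7.82 against 7.91 and 7.92, and a difference of 0.00 ± 0.11. Both induced values of Mvk lay between the controls.

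Pmvk, which adds the next phosphate, had 8.99 and 8.82 in controls and 8.78 and 8.71 in induced arrays. Both induced values of Pmvk were below both controls, and the difference of -0.16 ± 0.11 (adjusted p = 0.697) was smaller than the gap between the controls (0.17). Mvd, the mevalonate diphosphate decarboxylase, had 7.73 and 7.597 against 7.75 and 7.59, with nearly the same values in both groups (0.01 ± 0.11). The other kept probe set of Mvd had a difference of -0.28 ± 0.16, so that the direction for this gene is not settled.

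Idi1, the isopentenyl diphosphate isomerase, had 10.47 and 10.13 in controls and 10.24 and 9.94 in induced arrays. Replicates of Idi1 lay further apart (0.34 and 0.30) than the group means (-0.21 ± 0.16), and the groups overlapped. Its difference was -0.04 without control replicate 1, -0.38 without control replicate 2, -0.36 without induced replicate 1 and -0.06 without induced replicate 2. Fdps, the farnesyl diphosphate synthase, had 9.91 and 9.77 against 9.999 and 9.88. It was the sterol enzyme with the highest positive difference (0.10 ± 0.11), also with overlapping groups.

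The squalene and lanosterol steps followed. Fdft1, the squalene synthase, had 11.17 and 11.05 in controls and 10.997 and 11.05 in induced arrays (-0.09 ± 0.10). Sqle, the squalene monooxygenase, had 10.44 and 10.45 against 10.44 and 10.27 (-0.09 ± 0.11), so that a single induced array was apart. Lss, the lanosterol synthase, had 8.24 and 8.14 against 8.15 and 7.94 (-0.15 ± 0.11). A dimmer kept probe set of Lss was lower in both induced arrays (-0.28 ± 0.14) and another had -0.07 ± 0.13.

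Of the 4 sterol enzymes whose groups did not overlap, Pmvk acts early and Cyp51, Nsdhl and Hsd17b7 act after lanosterol. Tm7sf2, Msmo1, Ebp, Sc5d and Dhcr7 also act after lanosterol, and their groups overlapped in the brightest probe set. The 4 enzymes without overlap were 23.5% of the 17, near the 19.3% of all genes that were lower in the same sense. Cyp51, the lanosterol demethylase, had 9.49 and 9.31 in controls and 9.31 and 9.12 in induced arrays (-0.19 ± 0.12, adjusted p = 0.679). The lower control of Cyp51 and the higher induced array were nearly equal, so the separation is marginal. Its other kept probe sets had -0.21 with overlapping groups and 0.08, and the mean of the 3 was -0.11. On leaving out an array the difference of Cyp51 ran from -0.28 to -0.10. Tm7sf2, a sterol reductase, had 7.88 and 7.80 against 7.95 and 7.56 (-0.09 ± 0.15). Induced replicates of Tm7sf2 lay 0.39 apart, on either side of the controls.

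Enzymes that remove the methyl groups at carbon 4 of the sterol ring act in sequence as Msmo1, Nsdhl and Hsd17b7. Msmo1, the oxidase, had 11.28 and 11.08 in controls and 11.11 and 10.97 in induced arrays (-0.14 ± 0.12), with overlapping groups. Nsdhl, the dehydrogenase, had 9.60 and 9.51 in controls and 9.27 and 9.08 in induced arrays. Both induced values of Nsdhl were clearly below both controls, and its difference of -0.38 ± 0.11 (1.30-fold lower, 95% interval -0.66 to -0.10, adjusted p = 0.369) exceeded the gap between replicates of either group.

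Hsd17b7, the ketoreductase, had 9.24 and 9.11 in controls and 9.09 and 8.91 in induced arrays (-0.17 ± 0.11, adjusted p = 0.688). Its difference was no larger than the gap between the induced replicates (0.18). The lower control (9.106) and the higher induced array (9.088) were nearly equal. Of its 3 other kept probe sets 2 had a lower mean and the dimmest did not (0.06 ± 0.18), and the groups overlapped in all 3. Nsdhl lies on the X chromosome, as does Ebp, the sterol isomerase. Without induced replicate 1 the difference was -0.48 for Nsdhl and -0.15 for Ebp, and without induced replicate 2 it was -0.29 and 0.05.

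Ebp itself had 10.37 and 10.46 in controls and 10.47 and 10.27 in induced arrays, with overlapping groups (-0.05 ± 0.11). Sc5d, a sterol desaturase, had 9.43 and 9.25 against 9.44 and 9.31 (0.04 ± 0.11). Dhcr7, the reductase that can complete cholesterol, had 9.46 and 9.41 against 9.46 and 9.37 (-0.02 ± 0.10). The brightest probe sets of these last enzymes overlapped between the groups. A dimmer probe set of Sc5d was higher in both induced arrays (0.18 ± 0.11) and the dimmest had -0.12 ± 0.18.

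Sterol enzymes differed between replicates by no less than between groups, and in a shared direction. Control replicate 2 was below control replicate 1 for 15 of the 17 (median gap -0.13), against 55.9% of all genes. Induced replicate 2 was below induced replicate 1 for 14 of the 17 (median gap -0.16), against 46.4% of all genes, and 12 of the 17 showed both gaps. The labels do not say whether a replicate number marks a shared litter. Control replicate 1 was the highest of the 4 arrays for 10 of the 17 enzymes and exceeded induced replicate 2 for all 17 (median gap -0.17), while induced replicate 1 was below control replicate 2 for 7 and above it for 10 (median 0.01).

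Only Cyp51 and Nsdhl among the 17 had a group difference larger than both gaps between replicates, for Cyp51 by 0.005. Control replicate 1, the highest array for these genes, was also the array with the smallest 3' to 5' actin ratio (1.05), whose part in the result was not tested. In the 15 other genes the difference did not exceed the wider gap. Several differences shrank when a single array was left out. They ran from -0.25 to -0.07 for Pmvk and from -0.24 to -0.04 for Msmo1, both weakest without control replicate 1, and from -0.25 to -0.04 for Lss and from -0.26 to -0.09 for Hsd17b7, both weakest without induced replicate 2.

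**Figure D2:**
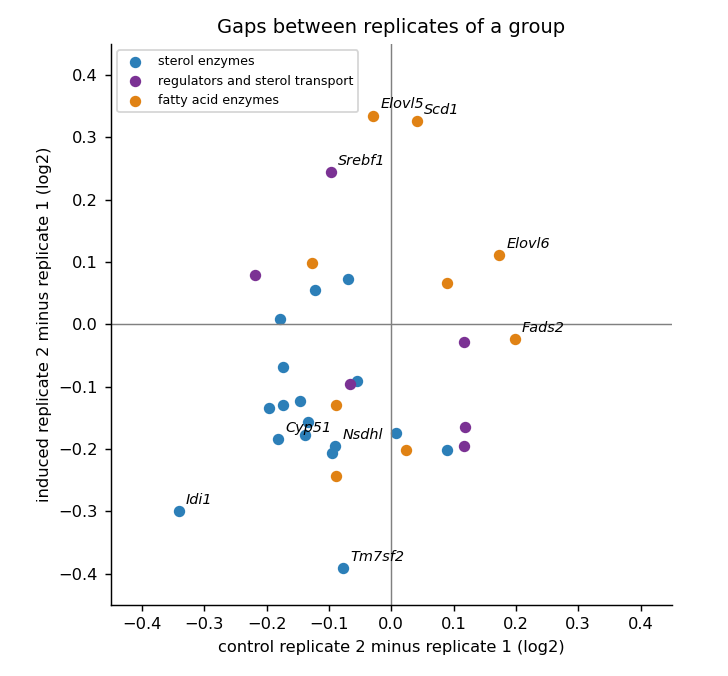
For each of the 32 genes, the gap between the control replicates (x axis, replicate 2 minus replicate 1, log2) against the gap between the induced replicates (y axis, likewise); colours mark the 3 groups of genes. Of 17 sterol enzymes 12 lie at the lower left, below 0 on both axes, while Scd1 and Elovl5 lie at the top with induced gaps of 0.33 and 0.34 and control gaps near 0.

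Regulators and the sterol carrier had a median difference of 0.05 over 6 genes, with a higher mean in the induced arrays for Insig1, Insig2, Scap and Srebf1, an equal one for Srebf2 and a lower one for Stard4. Both induced values exceeded both controls for 1 of the 6, Insig1, near the 20.1% of all genes that were higher in the same sense. They lay below both controls for 0 of the 6, against 19.3% of all genes. None of the 6 passed the adjusted threshold. Insig1, which retains Scap and is itself a classical SREBP target, had 7.71 and 7.64 in controls and 7.87 and 7.78 in induced arrays (0.15 ± 0.10, adjusted p = 0.697). The induced values of Insig1 were higher by more than the gap between replicates, and its sign was opposite to that of most sterol enzymes.

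Insig2, the second retention protein, had 10.04 and 10.16 in controls and 10.20 and 10.04 in induced arrays (0.02 ± 0.11), and its 2 other kept probe sets had 0.02 and 0.03. Scap had 8.92 and 8.70 against 8.88 and 8.96 (0.12 ± 0.12), with 1 control inside the induced range, and its difference was 0.23 without control replicate 1 and 0.01 without control replicate 2. Both retention and escort genes therefore overlapped between groups, apart from Insig1.

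Srebf1, which encodes the SREBP form that favours fatty acid genes, had 8.73 and 8.63 in controls and 8.63 and 8.88 in induced arrays (0.07 ± 0.12). Srebf2, the form that favours sterol genes, had 6.87 and 6.98 against 7.02 and 6.83, the same mean in both groups (0.00 ± 0.12). Stard4, a carrier of cholesterol between membranes, had 9.67 and 9.78 against 9.71 and 9.68 (-0.03 ± 0.10). Transcripts do not report SREBP cleavage, which was not measured.

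Fatty acid enzymes had a median difference of -0.04 over 9 genes, 5 of them with a lower mean. Both induced values lay below both controls for 3 of the 9 and above them for 0, against 19.3% and 20.1% of all genes. The 3 were Scd1, Elovl5 and Elovl6, while the other desaturases, Scd2, Fads1 and Fads2, overlapped. The median was -0.10 without induced replicate 1 and 0.02 without induced replicate 2, and the count of 3 was 6 without induced replicate 1, against 33.3% of all genes. None of the 9 passed the adjusted threshold in limma. At an unadjusted p under 0.05, 2 of the 9 were lower, against 5.23% of all genes.

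The enzymes of chain assembly were alike in both groups. Acly, which cleaves citrate to acetyl-CoA, had 11.19 and 11.10 in controls and 11.29 and 11.04 in induced arrays (0.02 ± 0.12). Acaca, the acetyl-CoA carboxylase, had 7.73 and 7.82 against 7.80 and 7.86 (0.05 ± 0.10). Fasn, the fatty acid synthase, had 8.85 and 8.72 against 8.78 and 8.88 (0.05 ± 0.10). Groups overlapped for all 3, with 95% intervals from -0.28 to 0.32 for Acly, -0.19 to 0.29 for Acaca and -0.21 to 0.30 for Fasn.

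Elongation of the saturated chain by Elovl6 and desaturation by Scd1 are successive steps towards monounsaturated fatty acids. Elovl6 had 10.05 and 10.22 in controls and 9.79 and 9.90 in induced arrays. Both induced values were below both controls, with a difference of -0.29 ± 0.11 (1.22-fold lower, 95% interval -0.56 to -0.01, adjusted p = 0.474). A second probe set of Elovl6 was also lower in both induced arrays (-0.23 ± 0.11), and a dim one, near the filter level, was higher (0.12 ± 0.10).

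Scd1, the stearoyl-CoA desaturase of epidermis and sebaceous gland, had 11.38 and 11.42 in controls and 10.79 and 11.12 in induced arrays. Its controls were close to each other and both induced arrays lay below them, at unequal distance. The difference was -0.45 ± 0.13 (1.36-fold lower, 95% interval -0.78 to -0.12, adjusted p = 0.373), and it was -0.28 without induced replicate 1 and -0.61 without induced replicate 2. The other kept probe set of Scd1 was dimmer and overlapped (-0.05 ± 0.12), so the mean of both probe sets gave -0.25.

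Scd2, its paralog, had 11.35 and 11.38 in controls and 11.40 and 11.19 in induced arrays (-0.07 ± 0.11). Groups overlapped for Scd2, and a dim probe set of this gene had 0.30 ± 0.16. The difference between the responses of Scd1 and Scd2 was not tested.

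Elovl5, an elongase of polyunsaturated chains, had 9.82 and 9.79 in controls and 9.39 and 9.73 in induced arrays. Nearly all of its difference (-0.25 ± 0.14, adjusted p = 0.619) lay in induced replicate 1, and it was -0.08 without that array. The other kept probe set of Elovl5 gave -0.17 ± 0.15 with overlapping groups. Fads1 and Fads2, the desaturases of the same branch, had differences of -0.04 ± 0.10 and 0.01 ± 0.11. Their values were 6.59 and 6.501 against 6.57 and 6.44 for Fads1, and 5.03 and 5.23 against 5.15 and 5.12 for Fads2, which overlapped.

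**Figure D3:**
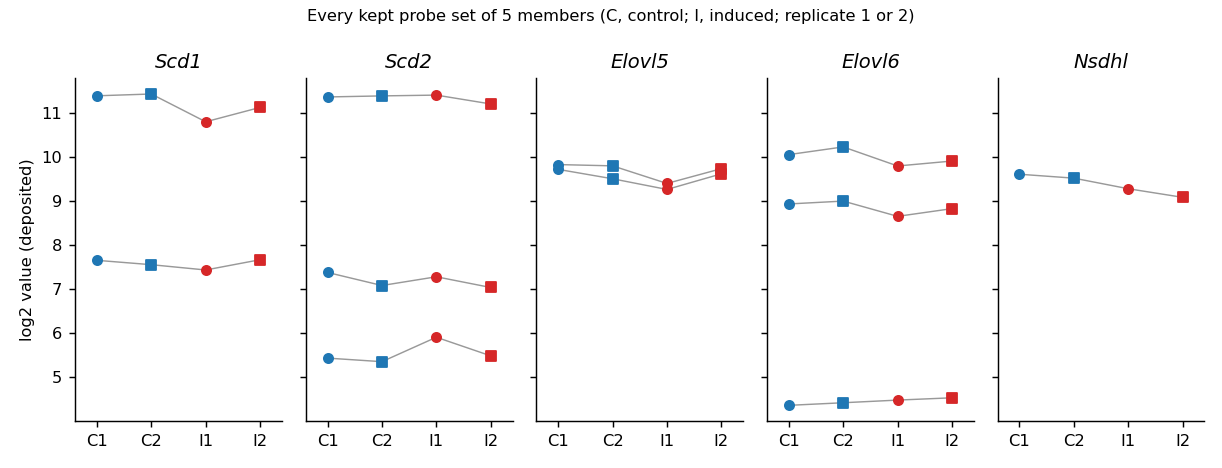
Deposited log2 values (y axis) of every kept probe set of Scd1, Scd2, Elovl5, Elovl6 and Nsdhl on the 4 arrays (x axis; C, control; I, induced; 1 or 2, replicate); grey lines join the values of 1 probe set. The brightest probe sets of Scd1, Elovl5, Elovl6 and Nsdhl are lower in both induced arrays. The other probe sets of Scd1 and Elovl5 and the dimmest of Elovl6 do not share this.

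Because RNA was taken from sorted cells in bulk, fewer cells of a type and less RNA per cell cannot be told apart. Sebaceous gland markers, a tissue in which Scd1 is known to be high, gave a mean log2 level over 7 measured genes of 8.55 and 8.47 in controls and 8.400 and 8.57 in induced arrays. Of these 7 genes 2 were lower in both induced arrays (Far2 and Cidea), 3 were higher (Mc5r, Elovl3 and Plin2) and Krt79 and Pparg overlapped. Of all genes 19.3% were lower and 20.1% higher in the same sense. Pparg had 6.52 and 6.38 against 5.99 and 6.64, lowest in induced replicate 1 as Scd1 and Elovl5 were. It was highest in induced replicate 2, where Scd1 and Elovl5 lay below both controls. The part of this in the values of Scd1 and Elovl5 was not tested.

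Keratinocyte and hair follicle markers were mostly separated between the groups, with 0 of either list past the adjusted threshold in limma. For 5 of 6 keratinocyte markers both induced values were below both controls, against 19.3% of all genes. For Krt10 the closest values were 14.285 in controls and 14.282 in induced arrays. Mean levels of the list were 12.24 and 12.25 in controls and 12.16 in each induced array. Its median difference was -0.11, beside -0.09 for sterol enzymes. In limma 0 of the 6 had an unadjusted p under 0.05, and the lowest adjusted p was 0.613. For 6 of 6 hair follicle markers, Krt71 and Foxn1 among them, both induced values were above both controls, against 20.1% of all genes. Their mean levels were 9.37 and 9.71 in controls and 10.26 and 10.45 in induced arrays, with a lowest adjusted p of 0.173. Fabp4, on the fat cell list, had 7.87 and 8.21 in controls and 9.24 and 9.01 in induced arrays (1.08 ± 0.15). Retn and Lipe of the same list overlapped (0.05 ± 0.14 and -0.06 ± 0.11), and Adipoq and Cidec lay below the filter level on all 4 arrays. Both measured red blood cell genes were higher in both induced arrays (Slc4a1 by 0.71 ± 0.11, Alas2 by 0.13 ± 0.09), and Lyz2 of immune cells was lower (-0.29 ± 0.10). Melanocyte markers had mean levels of 9.42 and 9.48 in controls and 9.23 and 9.95 in induced arrays, and the 3 measured fibroblast markers had 6.16 and 6.35 against 5.69 and 6.64. Both lists were thus lowest in induced replicate 1, as Scd1, Elovl5 and Elovl6 were. They were highest in induced replicate 2, where Scd1, Elovl5 and Elovl6 still lay below both controls. The part of these shifts in the sterol and fatty acid values was not tested.

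Other genes of lipid metabolism, a list of 32 drawn up by pathway, were measured for 29. Their median difference was 0.08, with 18 of 29 higher in mean. With the mean of each gene's probe sets the median was 0.02, and it was 0.05, 0.04, 0.04 and 0.05 without control replicate 1, control replicate 2, induced replicate 1 and induced replicate 2. Both induced values were above both controls for 10 and below them for 2, against 20.1% and 19.3% of all genes, and 0 passed the adjusted threshold in limma, 3 being higher and 0 lower at an unadjusted p under 0.05. With an array left out the count above was 13 to 16, with 16 on omitting the first array of either group, and that below was 4 to 7, when 33.2% to 37.3% of all genes were above and 31.9% to 37.9% below.

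Genes of SREBP processing, LXR receptors and sterol handling had a median of 0.10 over 11. Of these 5 were separated upwards and 1 downwards, against 20.1% and 19.3% of all genes. The count downwards was 3 without control replicate 1, control replicate 2 or induced replicate 2. In these cases 31.9%, 37.9% and 35.3% of all genes were below. Mylip, an LXR target that degrades lipoprotein receptors, had 8.41 and 8.49 in controls and 8.86 and 8.69 in induced arrays (0.32 ± 0.11, adjusted p = 0.414). Abca1, the cholesterol exporter and also an LXR target, had 8.36 and 8.52 against 8.71 and 8.73 (0.29 ± 0.11, adjusted p = 0.451). Both genes were higher in each induced array than in each control.

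Abcg1, a further LXR-driven exporter, had 6.79 and 6.94 in controls and 7.07 and 7.01 in induced arrays (0.17 ± 0.11), though its other kept probe set had -0.03. Mbtps2, the X-linked protease that releases SREBP, had 8.45 in each control and 8.64 and 8.61 in induced arrays (0.17 ± 0.09), and 0.16 without induced replicate 1. These genes were named for the largest absolute statistics of their list, and lay opposite in sign to Nsdhl and Scd1. Of the 11 genes 7 had a higher mean and 4 a lower one, against 50.4% of all genes with a lower mean. No adjusted p was under 0.05 on either side.

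The isoprenoid side branch, which leads to protein prenylation, ubiquinone and dolichol, had a median of 0.09 over 5 genes, and 0.17 without control replicate 1. Of the 5, 1 was separated upwards and 0 downwards, against 20.1% and 19.3% of all genes. Pdss2 differed by 0.22 ± 0.15, Ggps1 by 0.11 ± 0.13, Pggt1b by 0.09 ± 0.10 and Dhdds by 0.08 ± 0.11. The count of 1 was 5 without control replicate 1 and 3 without either induced array, but 0 with the mean of probe sets or after repeated quantile normalization. The median was 0.05 with the mean of probe sets and 0.01 without control replicate 2. The other kept probe set of Pdss2 had -0.17, and 2 of the 3 others of Ggps1 and of Pggt1b had the opposite sign, with means over the probe sets of 0.02 for Pdss2, 0.05 for Ggps1 and -0.05 for Pggt1b.

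Genes of acyl-CoA supply and glycerolipid synthesis had a median of -0.01 over 13. Of these 4 were separated upwards and 1 downwards, against 20.1% and 19.3% of all genes. Acsl3, a long-chain acyl-CoA ligase, had 6.80 and 6.79 in controls and 6.96 and 7.20 in induced arrays (0.29 ± 0.12, adjusted p = 0.489). Aacs, which makes acetoacetyl-CoA for sterol synthesis, had 8.27 and 8.07 against 8.05 and 7.83 (-0.23 ± 0.13, adjusted p = 0.619). Its replicate 2 was below replicate 1 in both groups, as for 12 of the 17 sterol enzymes. Lpin1 and Mid1ip1 differed by 0.15 ± 0.10 and 0.14 ± 0.10. The count downwards was 4 without control replicate 1 or either induced array, when 31.9% to 35.3% of all genes were below. The count upwards was 7 without induced replicate 1, when 35.9% of all genes were above.

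**Figure D4:**
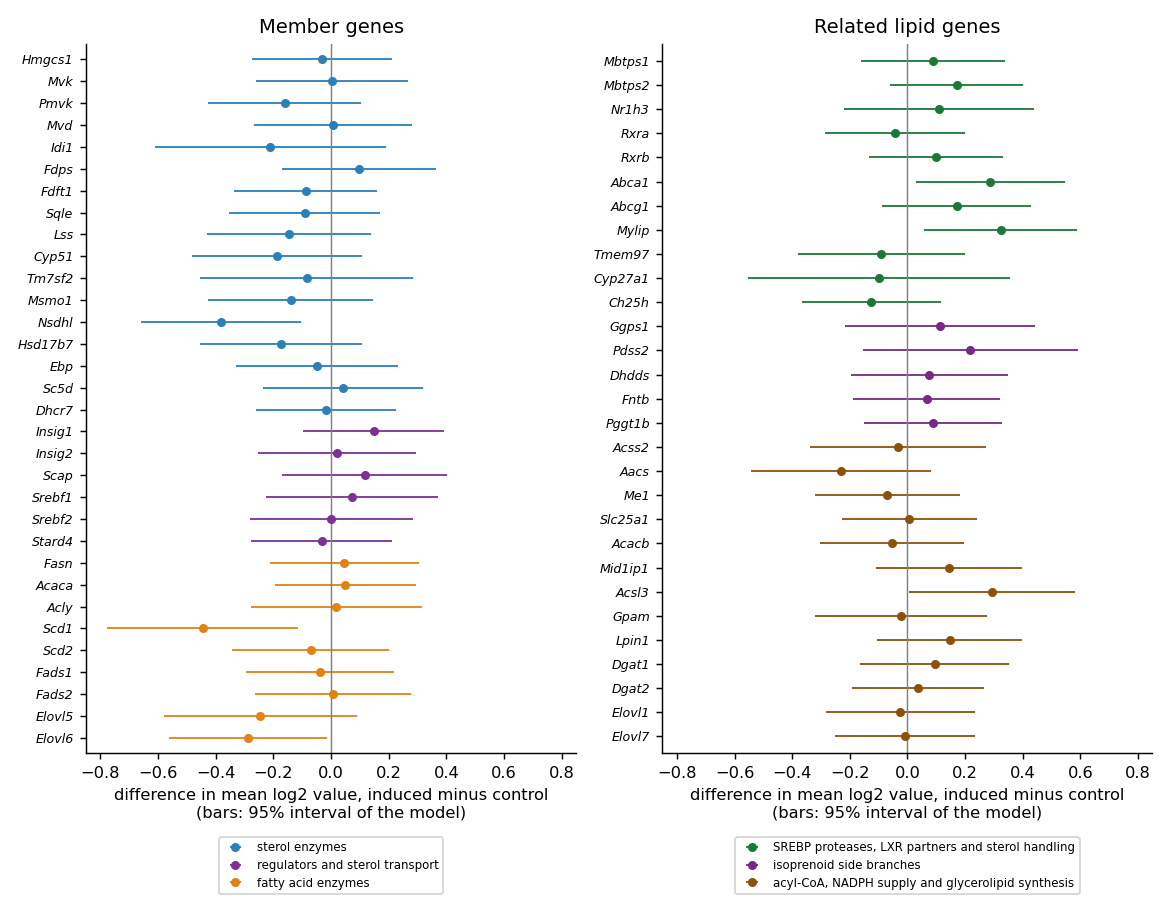
Difference in mean log2 value, induced minus control (x axis), with the 95% interval of the model, for the 32 sterol and fatty acid genes (left) and 29 related lipid genes (right), coloured by group (y axis, genes). Intervals of 3 genes on the left, Nsdhl, Scd1 and Elovl6, lie below 0 and those of Mylip, Abca1 and Acsl3 on the right lie above it, none past the adjusted threshold.

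For the 32 genes the single-gene 95% intervals set the size of change that these 4 arrays would leave. The lowest bound was -0.78 for Scd1 (1.71-fold lower) and the highest 0.40 for Scap (1.32-fold higher), and 29 of the 32 intervals held 0. These intervals are not adjusted for the number of genes. They rest on the spread between replicate arrays and on a prior variance estimated over all probe sets tested. Of the 32 genes 19 had another kept probe set, and for 11 of the 19 at least 1 of these had the opposite sign.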

How the data were processed

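The 4 samples were each hybridised to 1 Affymetrix mouse array. The authors deposited log2 values made with RMA, per the submitters' processing notes, which correct the background, quantile normalize the arrays and summarise each probe set; the sources used here give neither its version nor the chip definition. A change in total RNA per cell is lost in such normalized values.

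Of 45101 probe sets, 64 controls were left out, 34945 carried 1 gene in the platform annotation, and symbols were updated through RefSeq gene identifiers (GRCm38). Of the 45037 probe sets left, those whose mean over the arrays reached 4.17, the 40th percentile, were kept (27022). A gene was read from its brightest probe set. limma 3.58.1 in R 4.3.3 (lmFit, eBayes, two-sided) compared the groups with Benjamini-Hochberg adjustment over all 27022, with 2 residual and 3.82 prior degrees of freedom, and was tested on simulated data. Each difference subtracts the control mean from the induced mean and has the model's standard error. The number of arrays limits the precision.

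The genes, lists and tests were chosen with earlier results of these data known. Named are all list members, up to 4 genes of each related list by absolute statistic, and markers read beside a result. Alternatives were other filters, scalings, a variance prior with trend, the mean of probe sets, a fit blocked on the replicate number, and the omission of single arrays.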

Additional observations from a re-analysis of the deposited data

Results flagged for a closer look

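Transcripts of the Y chromosome, which enter no comparison here, were brighter in induced replicate 1 than in either control. Eif2s3y had a log2 value of 9.38 there, Kdm5d 7.14 and Uty 5.59, against 2.82 and 2.52, 2.48 and 2.65, and 3.59 and 3.47 in the controls and 2.72, 2.69 and 3.73 in induced replicate 2. The X-linked genes described here, Nsdhl, Ebp, Mbtps2 and Mid1ip1, differed by -0.48, -0.15, 0.16 and 0.13 without that array.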

How the results depend on the processing

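With 2 arrays a group, a difference smaller than its distance to either bound of its 95% interval could not be told from 0. Of 483 values of 44 named genes under the alternatives, 442 kept their sign, 0 passed an adjusted p of 0.05, and of the 41 of opposite sign 29 came from leaving out an array; 25 genes kept 1 sign throughout. Calls over all probe sets numbered 126 with the trended, robust prior and 2728 at an unadjusted p under 0.05. The median of SREBP proteases, LXR partners and sterol handling was 0.135 under the stricter filter (60th percentile), and the shorter sterol motif was found in 3 genes. The replicate number as a block gave 0 calls (lowest adjusted p 0.395) and changed no call; the pairing crossed, chosen after seeing the data because same-numbered deviations correlated at -0.10, also gave 0. The labels do not say that a number marks a shared litter.

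Centring on array medians gave -0.001 for Mvk and -0.005 for Srebf2. The mean of the probe sets gave -0.046 for Mvk, -0.138 for Mvd, -0.030 for Srebf2, 0.053 for Scd2, -0.049 for Fads2 and -0.050 for Pggt1b. Repeated quantile normalization gave -0.008 for Mvk, -0.011 for Mvd, -0.007 for Srebf2 and 0 for Fads2. The cause was not tested.

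Leaving out 1 array at a time, calls over all probe sets ran from 0 to 6, sterol enzymes lower in both induced arrays from 5 to 12, fatty acid enzymes from 3 to 6 and all 32 genes from 10 to 20, a lone array standing for its group. Medians ran from 0.026 to 0.087 for regulators, -0.104 to 0.016 for fatty acid enzymes, 0.012 to 0.173 for isoprenoid branches and -0.012 to 0.037 for acyl-CoA supply. Among single genes that changed sign, differences ran from -0.068 to 0.005 for Hmgcs1, -0.086 to 0.093 for Mvk, -0.071 to 0.086 for Mvd, -0.281 to 0.110 for Tm7sf2, -0.150 to 0.051 for Ebp, -0.046 to 0.128 for Sc5d and -0.062 to 0.029 for Dhcr7. They ran from -0.061 to 0.102 for Insig2, -0.050 to 0.196 for Srebf1, -0.097 to 0.098 for Srebf2, -0.091 to 0.025 for Stard4, -0.017 to 0.109 for Fasn, -0.104 to 0.141 for Acly, -0.171 to 0.030 for Scd2, -0.104 to 0.026 for Fads1, -0.093 to 0.105 for Fads2, -0.022 to 0.173 for Dhdds and -0.014 to 0.238 for Ggps1. The comparison of protein sequences between paralogs was not run.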
